A study of Rattus norvegicus with 6 samples.

Results

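The genes described here encode the subunits of the proteasome, together with its activators, an inhibitor and its assembly factors. They were taken by symbol, as every gene of the Psma, Psmb, Psmc, Psmd, Psme, Psmf and Psmg families that a probe set annotated to a single gene measures on the Affymetrix rat E230A array, and each gene was read from its brightest probe set. This gave 41 genes with 44 probe sets, of 10411 genes on the array. All 41 were bright enough to be tested and stand among the 7163 genes that were. They comprise 13 genes of the core particle, 5 genes of the immunoproteasome, 17 genes of the regulatory particle and 6 others. Psmb6 and Psme3 were left out because their probe sets carry several symbols, and Psmc6, Psmd12 and Psmd14 were not analysed here.

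RNA came from type II epithelial cells, the surfactant-making cells of the alveolus, which had been isolated from fetal rat lungs at embryonic day 19. The 3 strain cultures were stretched for 16 h on silastic membranes coated with collagen 1. Each hour held 15 min of 5% cyclic strain at 60 cycles/min, followed by 2.5% continuous distension over the remaining 45 min, in imitation of the forces that act in utero. The 3 control cultures were kept for 16 h on the same coated membranes without strain. All 6 cultures were in serum-free DMEM medium. The labels of 5 samples give rat strain CD and both sexes, and those of control 1 give neither. Each of the 3 pairs of 1 control and 1 strain culture came from its own litter. The arrays of pair 1 had a run day of their own, and only pair 3 was on the second of the chip lots used. Controls ran on fluidics modules 1, 1 and 3 and strain arrays on 2, 2 and 4, so module and strain cannot be told apart.

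The proteasome is the protease that destroys proteins tagged with ubiquitin. Its core particle is a barrel of alpha and beta rings whose catalytic sites lie inside, and its regulatory particle binds ubiquitin chains, removes them and threads the substrate through a ring of ATPases into the barrel. In cells exposed to interferon gamma the catalytic subunits Psmb8, Psmb9 and Psmb10 can replace the constitutive ones in newly built barrels, giving the immunoproteasome, and Psme1 and Psme2 form the PA28 activator cap. Immunoproteasomes shape the peptides that class I molecules present.

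Values are MAS5 signals, linear intensities with every array scaled to nearly the same trimmed mean. They show levels relative to the rest of the RNA. In such bulk cultures, fewer cells of a type and less RNA per cell cannot be told apart. Epithelial genes were bright on all arrays, with all 6 listed markers tested and a summed signal of 37647.5 to 40796.4 in controls and 38001.4 to 40935.6 under strain. Of the alveolar type II markers, 8 of the 11 on the array were tested. The 11 summed to 14271.0 to 15826.2 in controls and 14094.8 to 14934.0 under strain. Much of that sum came from Nkx2-1 and Muc1, with control means of 4553.1 and 4267.5, while Sftpa1, Napsa and Cebpa were too dim to be tested. The single markers did not move together. Their fitted log2 differences, strain minus control, ran from -0.77 for Slc34a2 to 0.57 for Sftpc, with Muc1 at -0.30. In all 3 pairs Sftpc and Lpcat1 were higher under strain, and Slc34a2, Muc1, Sftpd and Abca3 were lower. All 5 type I markers were tested too, and summed to 16696.3 to 19311.6 in controls and 16346.9 to 18132.2 under strain. Some smooth muscle and fibroblast markers were also bright. The 6 smooth muscle markers, 5 of them tested, summed to 18576.0 to 22865.3 in controls and 14116.1 to 20692.6 under strain. The 8 fibroblast markers, 5 of them tested, summed to 22304.8 to 24147.8 and 22266.1 to 22592.0. Single genes carried much of these sums, with control means of 13769 for Tagln and 15575 for Fn1. Fitted log2 differences, strain minus control, were -0.66 for Acta2, -0.49 for Actg2, -0.40 for Des, -0.35 for Cnn1 and -0.09 for Tagln. For fibroblast genes they were -0.61 for Col1a2, -0.32 for Col3a1, -0.28 for Vim, -0.06 for Fn1 and 0.18 for Col1a1. Acta2, Actg2, Des, Col1a2, Col3a1 and Vim were lower in all 3 pairs, and Col1a1 was higher in all 3. Of all markers tested, Acta2 had the lowest adjusted p, 0.051 (limma). Myh11 and Dcn, with control means of 97.7 and 60.0, were too dim to be tested. The 2 airway markers on the array summed to 12670.1 to 14672.1 in controls and 13561.2 to 14976.5 under strain. Most of that was Scgb1a1, with a control mean of 13180 beside 240.4 for Foxj1. None of the 4 endothelial markers on the array was bright enough to be tested.

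The promoters of 4 members are shown. Psma1 and Psmb2 had the smallest p-values for strain among the members, though neither was called. Psmb10 and Psme2 are interferon-inducible members with a matching motif. Each is the 250 bases before the start that RefSeq annotates on the rat assembly GRCr8, written 5' to 3' on the gene's strand. Capitals mark the matches of 4 motifs on either strand: the CCAAT box (CCAAT), the GC box (GGGCGG), the antioxidant response element core (TGACNNNGC) and the interferon-stimulated response element core (2 GAAA runs with 2 bases of any kind between them). The window of Psma1 lies at chr1:177887858-177888107 on the minus strand, and that of Psmb2 at chr5:144254808-144255057 on the plus strand. The window of Psmb10 lies at chr19:50743293-50743542 and that of Psme2 at chr15:33052752-33053001, both on the minus strand. In Psmb2 a CCAAT match, the antioxidant match and a GC box match overlap and form 1 run of capitals.
Psma1: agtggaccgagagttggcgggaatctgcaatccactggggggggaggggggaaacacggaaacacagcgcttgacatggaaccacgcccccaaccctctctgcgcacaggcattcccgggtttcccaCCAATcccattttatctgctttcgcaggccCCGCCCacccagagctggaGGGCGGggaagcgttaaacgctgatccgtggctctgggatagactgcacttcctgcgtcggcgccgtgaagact
Psmb2: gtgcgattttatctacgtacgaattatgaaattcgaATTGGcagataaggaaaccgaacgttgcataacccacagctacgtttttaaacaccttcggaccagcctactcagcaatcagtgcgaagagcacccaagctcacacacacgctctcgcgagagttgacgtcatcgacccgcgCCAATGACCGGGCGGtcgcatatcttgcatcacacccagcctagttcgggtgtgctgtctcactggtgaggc
Psmb10: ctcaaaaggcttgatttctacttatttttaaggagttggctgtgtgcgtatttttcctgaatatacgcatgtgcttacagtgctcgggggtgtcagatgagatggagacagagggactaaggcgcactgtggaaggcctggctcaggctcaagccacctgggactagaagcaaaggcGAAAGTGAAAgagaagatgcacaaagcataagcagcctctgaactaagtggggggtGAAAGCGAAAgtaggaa
Psme2: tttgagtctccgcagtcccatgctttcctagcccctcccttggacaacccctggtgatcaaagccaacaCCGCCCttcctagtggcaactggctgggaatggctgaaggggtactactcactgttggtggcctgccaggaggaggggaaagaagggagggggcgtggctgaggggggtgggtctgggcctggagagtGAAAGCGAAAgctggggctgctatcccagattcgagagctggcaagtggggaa

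Windows were found for 39 of the 41 members, all but Psma7 and Psmd6, and were set beside all 33469 windows of that length in the table. A GC box match stood in 27 member windows (69.23%) against 30.47% of all windows. A CCAAT match stood in 19 (48.72%) against 34.02%. The interferon-stimulated element core stood in 5 (12.82%) against 3.406%: those of Psma4, Psmb3, Psmb10, Psmd7 and Psme2. The antioxidant core stood in 6 (15.38%) against 10.08%: those of Psma3, Psmb2, Psmb5, Psmd1, Psmd9 and Psme4. The gamma-activated site TTCNNNGAA stood in 3 (7.692%) against 7.667%, and the TATA box TATAAA in 4 (10.26%) against 12.93%. These motifs were kept from a wider search of the same windows, so the shares are a description and were not tested.

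No proteasome gene was called different between strain and control. A gene was called where limma's moderated test within litter pairs gave an adjusted p under 0.05, with the Benjamini-Hochberg adjustment over all probe sets tested. Under this rule 0 of the 41 members were called, beside 25 of the 7163 genes tested (0.349%), of which 23 were higher under strain (0.321%) and 2 lower (0.0279%). At an unadjusted p under 0.05 limma gave 2 members (4.88%), Psma1 lower and Psmb2 higher, against 9.56% of all genes. Without pair 2 this count was 0. Differences had the same sign in all 3 pairs in 6 members upward (14.6%, against 14.3% of all genes) and in 8 downward (19.5%, against 16.1%). The members upward were Psma6, Psmb2, Psmb5, Psmc1, Psmc5 and Psmd11, and those downward were Psma1, Psma2, Psmb9, Psmc4, Psmd4, Psmd10, Psme1 and Psmg3. The 3 arrays of each group did not overlap for 1 member upward, Psma6 (2.99% of all genes), and 1 downward, Psmb9 (3.18% of all genes).

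The differences of the members were small. A log2 difference below is the fitted strain minus control difference of log2(signal + 16) over 3 pairs, given with limma's moderated SE. That SE borrows variance from other probe sets and is not the spread of the 3 pairs. The log2 difference understates changes of dim genes. The median over the 41 members was -0.002, and by pair it was -0.06, 0.02 and -0.07. Of the members, 19 lay above 0 and 22 below, from -0.46 for Psma1 to 0.29 for Psmf1. The median size of the difference was 0.063 in the members and 0.12 over all genes tested. For 38 of the 41 members (92.7%) the whole 95% interval lay within a 1.5-fold difference either way, which held for 71.3% of all genes. The 3 others were Psma1, Psmb9 and Psmf1. The probe sets of the members were also brighter than most, with a median mean signal of 1281 against 501, and their SEs were smaller, with a median of 0.12 against 0.15. The part of brightness in the narrow intervals was not tested.

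**Figure D1:**
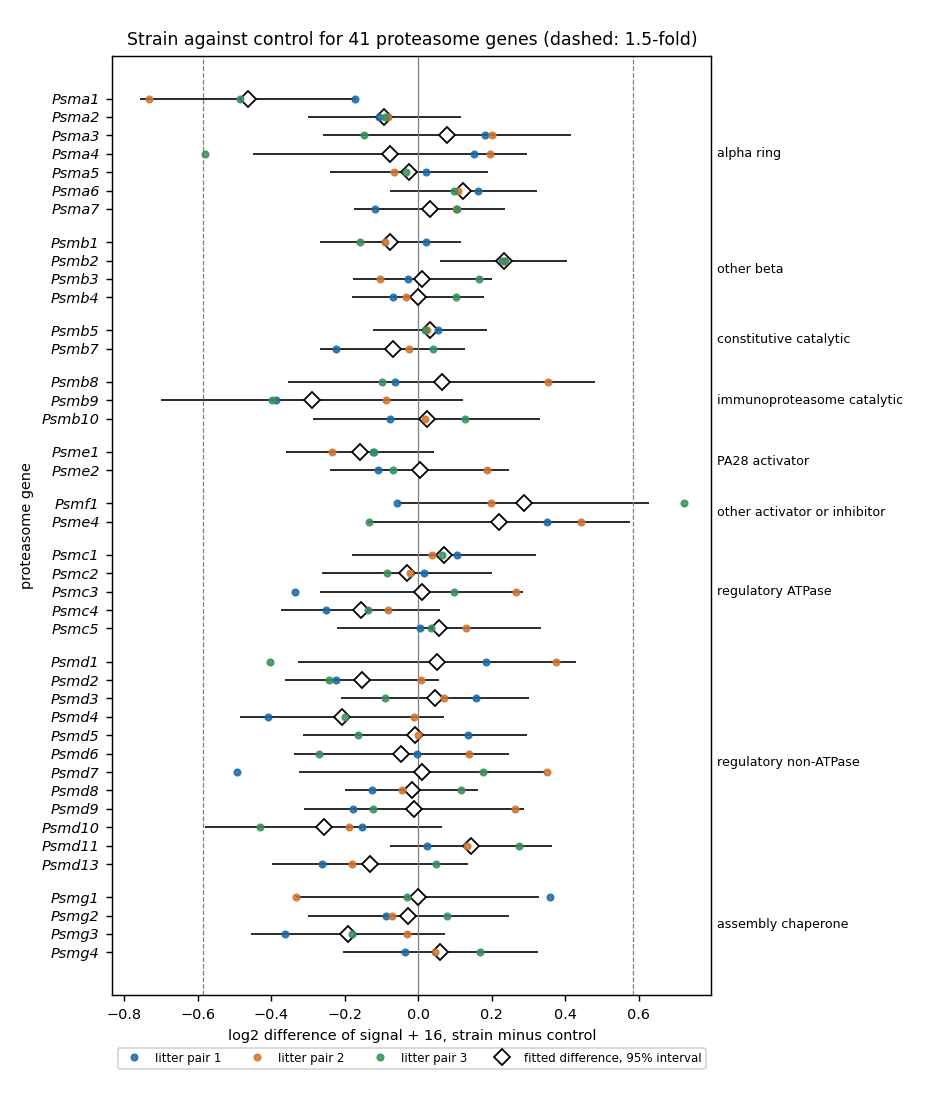
Log2 difference of signal + 16, strain minus control, for each of the 41 proteasome genes by role. Dots are the 3 litter pairs, diamonds the fitted difference with its 95% interval, and dashed lines a 1.5-fold difference. The intervals of 39 members cross 0, and those of Psma1 and Psmb2 do not.

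**Figure D2:**
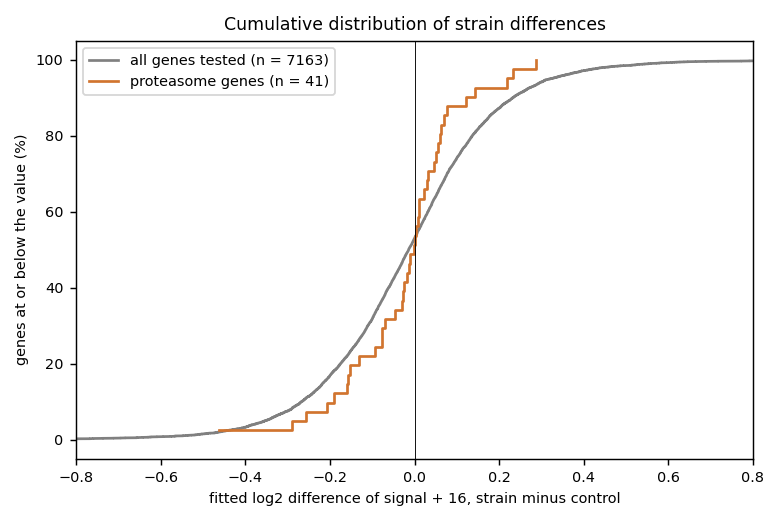
Share of genes at or below each fitted log2 difference of strain against control, for the 41 proteasome genes and for all 7163 genes tested. The proteasome curve is steeper around 0: 82.9% of the members and 70.4% of all genes had a difference under 0.2 in size.

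In the alpha rings, which form the gate of the core particle, 7 members were measured, with a median difference of -0.03. Psma1, an alpha ring subunit, read 1011.4, 1215.6 and 2090.1 in controls 1 to 3 and 896.1, 725.1 and 1487.5 in the paired strain cultures. The strain culture was the lower one in each pair, but the groups overlapped because pair 3 was high in both. Its log2 difference was -0.46 ± 0.13, a fold of 0.725 with a 95% interval of 0.591 to 0.889 (limma, adjusted p = 0.271). The pairs differed among themselves, at -0.17, -0.73 and -0.49. Psma6, another alpha subunit, read 3152.7, 3094.9 and 3031.4 in controls and 3526.7, 3336.4 and 3243.7 under strain. Every strain culture was above every control, yet the log2 difference was only 0.12 ± 0.09 (adjusted p = 0.747). The other 5 alpha genes had differences from -0.09 for Psma2 to 0.08 for Psma3, and every one of their intervals crossed 0.

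In the beta rings, 4 members that carry no active site, Psmb1 to Psmb4, had a median difference of 0.01. Psmb2, a beta ring subunit, read 5474.4, 5604.9 and 4636.5 in controls and 6415.8, 6583.8 and 5466.3 under strain. The strain culture was higher in each pair by almost the same amount, 0.23, 0.23 and 0.24, while the lowest strain culture, in pair 3, was below controls 1 and 2. The fitted log2 difference was 0.23 ± 0.08, a fold of 1.17 with a 95% interval of 1.04 to 1.32 (limma, adjusted p = 0.354). Psmb1, Psmb3 and Psmb4 had differences of -0.08, 0.01 and 0.00.

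The constitutive catalytic subunits Psmb5 and Psmb7 had fitted differences near 0. Psmb5, which carries the chymotrypsin-like site, read 8487.0, 9173.5 and 8300.6 in controls and 8800.3, 9330.9 and 8402.9 under strain. The groups overlapped, and the log2 difference was 0.03 ± 0.07, with a fold interval of 0.918 to 1.14. Psmb7, which carries the trypsin-like site, read 5416.2, 4893.1 and 3821.9 in controls and 4638.1, 4811.9 and 3925.8 under strain. Pair 3 was low in both groups, and the log2 difference was -0.07 ± 0.09.

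The immunoproteasome genes had a median difference of 0.003 and no call among their 5 members. Psmb8, the inducible counterpart of Psmb5, was dim and read 183.1, 193.9 and 220.3 in controls and 174.6, 251.8 and 204.7 under strain. Pair 2 went up and the other pairs down, and the log2 difference was 0.06 ± 0.19. Psmb9, the inducible counterpart of Psmb6, read 254.8, 191.6 and 216.0 in controls and 191.1, 179.5 and 160.2 under strain. The groups did not overlap, by the narrow gap between control 2 and strain 1, and the log2 difference was -0.29 ± 0.19 (limma, adjusted p = 0.708). Its fold interval, 0.615 to 1.09, was among the 3 that reached past 1.5-fold. Psmb10, the inducible counterpart of Psmb7, read 311.5, 558.3 and 603.6 in controls and 294.3, 565.5 and 660.6 under strain. Both arrays of pair 1 were low, and within pairs the log2 difference was 0.02 ± 0.14.

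Neither subunit of the PA28 cap, Psme1 or Psme2, was called. Psme1 read 3272.8, 3992.2 and 3422.1 in controls and 3006.2, 3388.6 and 3149.3 under strain. It was lower under strain in every pair, with overlapping groups and a log2 difference of -0.16 ± 0.09 (limma, adjusted p = 0.657). Psme2 read 1850.9, 1896.9 and 1815.7 in controls and 1715.0, 2162.5 and 1730.4 under strain. It was higher in pair 2 and lower in the other pairs, and the log2 difference was 0.00 ± 0.11.

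The exchange of catalytic subunits was read as the difference of the inducible subunit minus that of its constitutive counterpart, which sets no gene's level against another's. For Psmb8 and Psmb5 this was -0.12, 0.33 and -0.12 in pairs 1 to 3, with a mean of 0.03 ± 0.26 (SD, n = 3). For Psmb10 and Psmb7 it was 0.15, 0.04 and 0.09, with a mean of 0.09 ± 0.05 (SD, n = 3). The first had no common direction, and the second was above 0 in each pair but small. Leukocyte markers, whose cells carry much immunoproteasome, were all on the array, and 7 of the 12 were bright enough to be tested. The summed signal of the 12 was 3071.6 to 3754.8 in controls and 2196.1 to 3852.5 under strain. Much of it came from Lyz2 and Fcer1g, with control means of 1193.7 and 557.0. Ptprc, Cd53, Coro1a, RT1-Da and RT1-Ba were too dim to be tested, with a control mean of 25.6 for Ptprc. The part of leukocytes in the immunoproteasome values was not tested.

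**Figure D3:**
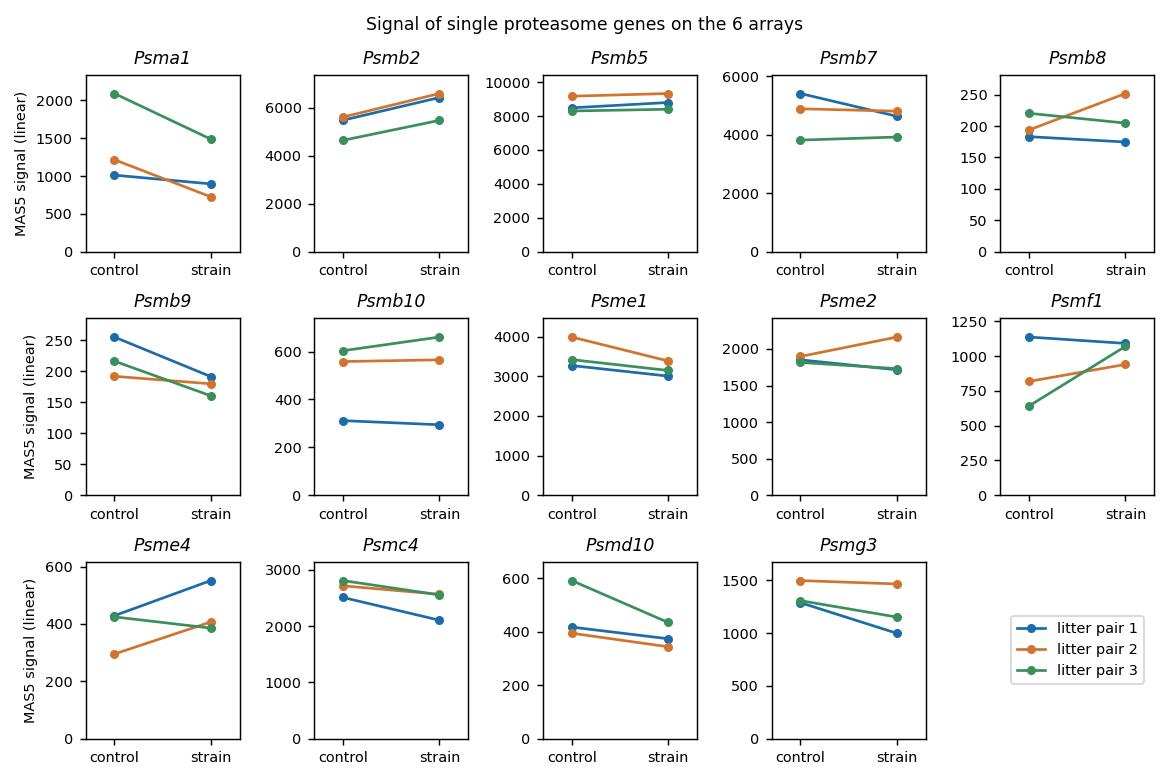
MAS5 signal of single proteasome genes on the 6 arrays, with lines joining the control and strain culture of each litter pair. Psma1 runs down and Psmb2 runs up in all 3 pairs, Psmb10 is low on both arrays of pair 1, and Psmf1 goes up mainly in pair 3.

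In the regulatory particle all 17 members had 95% intervals within a 1.5-fold difference, and their median difference was -0.01. Its 5 ATPases, which unfold the substrate, ranged from -0.16 for Psmc4 to 0.07 for Psmc1. Psmc4 read 2509.0, 2716.2 and 2809.0 in controls and 2105.2, 2565.6 and 2554.2 under strain. It was lower under strain in every pair, but strain cultures 2 and 3 were above control 1, and the log2 difference was -0.16 ± 0.10 (limma, adjusted p = 0.695). The 12 non-ATPase members ranged from -0.26 for Psmd10 to 0.14 for Psmd11. Psmd10, known as gankyrin, an assembly chaperone of the ATPase ring, read 417.2, 394.3 and 591.0 in controls and 373.6, 343.7 and 434.6 under strain. It was also lower in every pair with overlapping groups, at -0.26 ± 0.15 (adjusted p = 0.655). A second probe set of Psmd11 had a difference of -0.04, so its probe sets did not share a sign. Psmd4, a ubiquitin receptor, was lower in all pairs at -0.21, and the pairs gave -0.41, -0.01 and -0.20.

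The 6 other members held the highest fitted difference. Psmf1, an inhibitor of the core particle, read 1138.0, 819.0 and 642.8 in controls and 1092.3, 941.2 and 1071.3 under strain. Most of the difference lay in pair 3, at 0.72, beside -0.06 and 0.20 in pairs 1 and 2. The fitted value was 0.29 ± 0.16 (limma, adjusted p = 0.635). Psme4, the PA200 activator, read 428.7, 295.2 and 424.6 in controls and 551.0, 406.7 and 385.5 under strain. Pairs 1 and 2 went up and pair 3 down, for 0.22 ± 0.16. Its other probe sets gave 0.26 and -0.12. Among the assembly chaperones Psmg1 to Psmg4 the differences ran from -0.19 to 0.06. Psmg3 read 1286.7, 1495.8 and 1305.8 in controls and 997.7, 1463.9 and 1150.9 under strain, lower in every pair with overlapping groups, at -0.19 ± 0.12.

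The members varied between litter pairs about as much as other genes did. For each gene the mean log2 value of the control and the strain array was taken in each pair, and the range of these 3 means was set beside the strain difference. The range was larger than the size of the strain difference in 39 of the 41 members (95.1%, against 88.6% of all genes), and its median was 0.41, as it was over all genes tested (0.41). An F test of the pair term in the same limma model, added after the data were seen, called 9 members (22.0%) at an adjusted p under 0.05, against 16.6% of all genes. They were Psma1, Psma5, Psmb1, Psmb10, Psmc1, Psmc2, Psmd2, Psmd13 and Psmg4. Of the 41 members, 22 were lowest in pair 1 (53.7%, against 36.0% of all genes tested), 9 in pair 2 and 10 in pair 3, and of the 17 regulatory particle members 12 were lowest in pair 1. Of the 9 called members, 7 were lowest in pair 1, as were 42.8% of all genes called for the pair term. These shares were not tested. Pair 1 had a run day of its own and pair 3 a chip lot of its own, so litter, run day and chip lot cannot be told apart here. The count of 9 moved with the settings, to 4 without the filter on dim probe sets, 18 with arrays centred on the median and 0 without the trend of the variance.

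Psmb10 had the widest range, 1.02 on the log2 scale (pair term, limma F test, adjusted p = 0.0088), with the low pair 1 described above. Psmg4 ran the other way. It read 1546.2 and 1508.8 in control 1 and strain 1, 931.6 and 961.6 in pair 2, and 710.3 and 800.2 in pair 3, a range of 1.00. Psmd2, the large scaffold subunit of the regulatory particle, read 2654.0, 4171.4 and 4201.1 in controls and 2269.3, 4190.2 and 3549.4 under strain. Both cultures of pair 1 lay below all others in Psmb10 and Psmd2, and above all others in Psmg4.

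**Figure D4:**
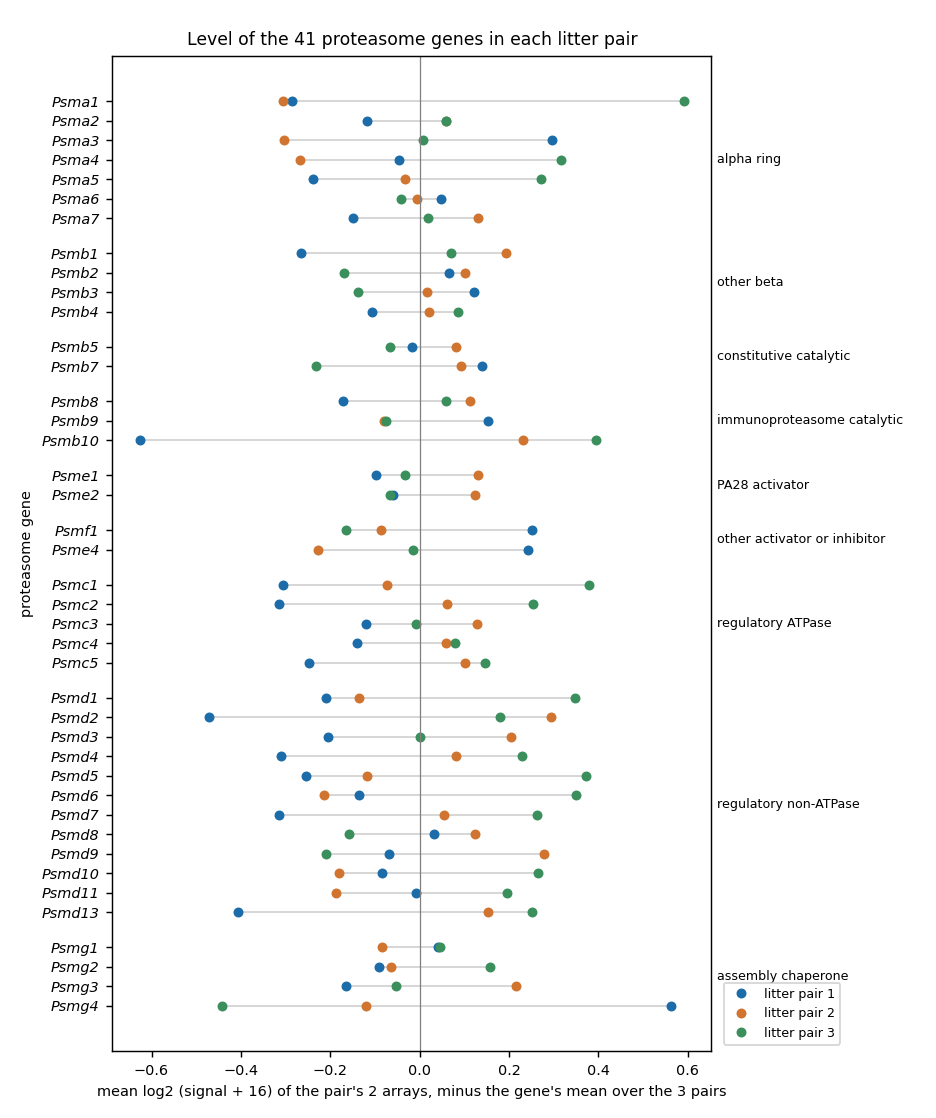
Mean log2 level of each litter pair for the 41 proteasome genes, centred on the gene's mean over the 3 pairs. Of the 17 regulatory particle genes, 12 are lowest in pair 1, where 36.0% of all genes tested are lowest, while Psmg4 is highest there.

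Genes that act with the proteasome were read from 7 lists. Of the proteasome-associated proteins, 12 were tested and 0 called by limma, with 0 at an unadjusted p under 0.05 and a median difference of 0.05. Pomp, the chaperone that matures the core particle, was at 0.03 ± 0.08, and Adrm1, a ubiquitin receptor, at 0.20 ± 0.14. Of the ubiquitin and activation genes, 11 were tested and 0 called, with 0 at an unadjusted p under 0.05 and a median of 0.05. Of the shuttle and extraction factors, 15 were tested and 0 called, with a median of 0.04. At an unadjusted p under 0.05 limma gave 2, beside 9.56% of all genes. Both were higher: Sqstm1 and Nsfl1c, a cofactor of the p97 unfoldase, at 0.35 ± 0.12 (adjusted p = 0.360). Sqstm1 encodes p62, which carries ubiquitinated cargo to autophagy. Its brightest probe set read 4907.4, 4500.5 and 3839.8 in controls and 6625.1, 6113.7 and 5127.5 under strain, for 0.43 ± 0.08 (limma, adjusted p = 0.064), and the groups did not overlap. A dimmer Sqstm1 probe set passed the test at 0.60 ± 0.10 (adjusted p = 0.029), and a dimmer one still was at -0.19.

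Of the transcription factors tied to proteasome genes, 11 were tested and 1 called, with a median of 0.05. Atf4, the effector of the integrated stress response, rose. It read 6037.8, 4725.3 and 3801.9 in controls and 10222.0, 7725.0 and 5764.4 under strain, for 0.69 ± 0.08 (limma, adjusted p = 0.0050). The strain culture was higher in each pair, and the groups overlapped. Nfe2l1, the factor that induces proteasome genes when the proteasome is inhibited, was at 0.05 ± 0.14, with other probe sets at -0.20 and 0.25. Nfe2l2, which encodes NRF2, was at -0.04 ± 0.14. The brightest Stat3 probe set was lower in every pair at -0.23 ± 0.11 (adjusted p = 0.522). A dimmer Stat3 probe set was at -0.19, with 0.10, -0.66 and -0.02 in pairs 1 to 3.

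Of the NRF2 targets, genes of the antioxidant response, 16 were tested and 1 called, with a median of 0.14, and 14 lay above 0. In all 3 pairs 9 were higher and 0 lower, beside 14.3% and 16.1% of all genes. Hmox1, heme oxygenase, rose. It read 871.0, 716.1 and 583.2 in controls and 1728.1, 1502.9 and 920.3 under strain, without overlap, for 0.89 ± 0.13 (limma, adjusted p = 0.017). The calls of Atf4 and Hmox1 ended without the pair term and with run day in its place. They also ended without the filter on dim probe sets or without the variance trend. In the fits that left out any 1 of the 6 arrays they ended too, but those fits also lack the pair term. The call of Hmox1 ended without pair 2 as well. The calls of Atf4 and Hmox1 held in 9 and 8 of the 19 alternatives. Nqo1 was at 0.35 ± 0.09 (adjusted p = 0.174) and Srxn1 at 0.35 ± 0.14 (adjusted p = 0.475). The 6 members whose window held an antioxidant core had differences of 0.08 for Psma3, 0.23 for Psmb2, 0.03 for Psmb5, 0.05 for Psmd1, -0.01 for Psmd9 and 0.22 for Psme4.

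Of the class I presentation genes, 13 were tested and 0 called by limma, with 0 at an unadjusted p under 0.05 and a median of -0.06. Of the interferon response genes, 18 of the 29 on the array were tested and 0 called, with a median of -0.06. In all 3 pairs 0 were higher and 4 lower, beside 14.3% and 16.1% of all genes. At an unadjusted p under 0.05 limma gave 2, beside 9.56% of all genes. Both were lower: Oasl at -0.55 ± 0.19 (adjusted p = 0.387) and Ifitm3 at -0.35 ± 0.14 (adjusted p = 0.444). The 5 members whose window held an interferon-stimulated core had differences of -0.08 for Psma4, 0.01 for Psmb3, 0.02 for Psmb10, 0.01 for Psmd7 and 0.00 for Psme2.

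Some immunoproteasome genes lie beside genes of the same response. In the RefSeq order, Psmb8 stands on chromosome 20 between Tap2 and Tap1, the peptide transporter genes, and Psmb9 follows Tap1. Psme1 and Psme2 stand on chromosome 15 with Emc9 between them, and Irf9 lies near. Psmb10 stands alone on chromosome 19 between Ctrl and Lcat. Tap1, Tap2 and Irf9 are named for this position and after their values were seen. The brighter Tap1 probe set read 145.6, 175.2 and 100.9 in controls and 57.1, 70.4 and 110.9 under strain. The dimmer one read 82.6, 39.1 and 62.1 in controls and 47.7, 71.3 and 80.3 under strain. Both were too dim to be tested, and they did not share a direction in every pair. Tap2 was at -0.06 ± 0.24 and Irf9 at 0.04 ± 0.19.

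**Figure D5:**
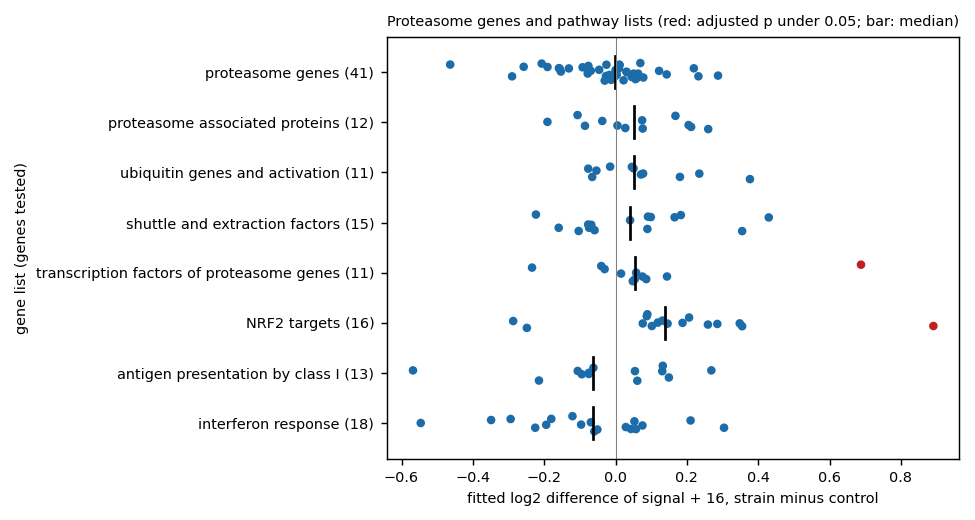
Fitted log2 differences of strain against control for the proteasome genes and the 7 lists of genes that act with them. Most lists centre near 0, the NRF2 targets have a median of 0.14, and the red points mark the called genes Atf4 and Hmox1.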

How the data were processed

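The values are intensities as deposited by the authors, the MAS5 5.0 signals of 6 arrays (tool and version from the submitters' processing notes). The 2% trimmed mean of each array lay between 500.129 and 500.148. Text files on each array run were used only for run day, chip lot and fluidics module. The pair is the number in the sample titles, and per the series' design text each pair had its own litter. Across probe sets, arrays with the same number deviated from their group means together (r = 0.51, 0.47 and 0.44), and other combinations gave r from -0.35 to -0.12.

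Signals were taken as log2(signal + 16). Of 15866 probe sets that are not controls, the dimmest 40% (by mean log2 signal) were not tested, which put the limit near a signal of 115.6 and kept 9519. A linear model with pair and group was fitted (limma 3.58.1, R 4.3.3) with a variance trend and Benjamini-Hochberg adjustment over these probe sets. The variances rest on 2 residual and 9 prior degrees of freedom, so they are mostly borrowed from other probe sets. The 3 pairs limit the precision. Of the probe sets, 12783 carry a single symbol in the platform annotation. The fitting script was tested on simulated data.

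Values on every array are given for called members, the immunoproteasome and constitutive catalytic genes, the member with the smallest p in each role, and the 3 highest and 3 lowest differences. Psma6, Psmd2, Psmd4, Psmd11 and Psmg4 were singled out after their values were seen. Of each list, called genes and up to 3 genes with the smallest p are named, with Nfe2l1, Nfe2l2 and Pomp always. The members and lists were chosen with earlier results of these data known. Alternatives were the pair or run day term, the filter, pseudocounts of 1 and 64, quantile or median scaling, no variance trend, the mean of a gene's probe sets, and leaving out each pair or array.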

Additional observations from a re-analysis of the deposited data

How the results depend on the processing

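Under each of the 19 alternatives limma called 0 proteasome genes, higher or lower. In 7 of them, the fit without the replicate block and the 6 that leave out 1 array, it called no probe set on the whole array, and in 2 it called 1, so these say nothing about the members. The other 10 called 5 to 52 probe sets. Of 264 values of 14 members (those chosen by the rule for values on every array), 250 kept their direction. Many of these could not change. In this balanced design the block, the filter and the variance trend leave the fitted difference of a probe set as it is. Without the replicate block, limma gave 0 members at an unadjusted p under 0.05, and the lowest adjusted p of a member was 1.0. Atf4 and Hmox1 lost their calls there (adjusted p of 1.00 for both). The same held with run day as the block, no filter or no variance trend. It also held in the fits that leave out any 1 array, which have no replicate block either. Hmox1 lost its call without replicate 2 as well (adjusted p = 0.123). Over all alternatives the adjusted p ran from 0.00061 to 1 for Atf4 and from 0.012 to 1 for Hmox1. Without replicate 2 limma gave 0 members at an unadjusted p under 0.05. The adjusted p of Psma1 ran from 0.060, without replicate 1, to 1, and that of Psmb2 from 0.280 to 1. Sqstm1 passed without replicate 1 (adjusted p = 0.044, of a range from there to 1).

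The core particle median was -0.036 after quantile scaling and 0.032 after median centring. Psme2 was -0.0064 after quantile scaling. With the mean of all probe sets of a gene, Cdc34 was -0.047 and Sqstm1 -0.072. The Sqstm1 mean includes a further probe set that was too dim to be tested. It read 110.8, 19.5 and 98.8 in controls and 22.3, 17.4 and 22.7 under strain. The pair term called 4 members without the filter, 11 of the 39 members left among the highest 40% of probe sets, 18 after median centring and 0 without the variance trend.

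Leaving out 1 pair or 1 array gave medians from -0.072 to 0.063 over all members, -0.022 to 0.032 in the core particle, -0.189 to 0.061 in the immunoproteasome and -0.143 to 0.104 in the regulatory particle. Members of one sign in all remaining pairs then numbered 6 to 12 upward and 13 to 14 downward, where fewer pairs make one sign easier to reach; these counts have no value when 1 array is left out, since those fits have no pair term. The directions of 11 genes turned, with ranges of -0.27 to 0.36 for Psmb10, -0.0077 to 0.074 for Psmb5, -0.21 to 0.038 for Psmb7, -0.081 to 0.18 for Psmb8, -0.11 to 0.061 for Psme2, -0.076 to 0.41 for Adrm1, -0.24 to 0.25 for Irf9, -0.15 to 0.17 for Nfe2l1, -0.21 to 0.12 for Nfe2l2, -0.038 to 0.10 for Pomp and -0.29 to 0.10 for Tap2. The fits that leave out 1 array have no pair term, so level differences between pairs enter their values. Psmb10, with a pair range of 1.02, had within-pair differences of -0.08, 0.02 and 0.13. The share of the changes that comes from this was not tested. Probe-level signal over background was not used here, and the dim Psmb8 and Psmb9 were dropped by the stricter filter.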
